A study of Mus musculus with 4 samples.

Results

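The genes described here encode the proteins of the mitochondrial ribosome, in splenic CD8 T cells taken from mice given the dioxin TCDD or its solvent. They are the genes whose symbol in the platform annotation begins with Mrpl (large subunit) or Mrps (small subunit) followed by a digit. Each was represented by the probe set, among those naming 1 gene only, with the highest mean over the arrays. This gave 74 genes of the 12393 measured in the series, 47 of the large and 27 of the small subunit. Both groups were female C57BL/6 mice of 8 to 12 weeks with no stated genetic modification. One group received TCDD, which binds the aryl hydrocarbon receptor (AHR), intraperitoneally at 10 µg/kg, the other received DMSO, and spleens were taken after 24 h. Cells of 4 mice per group were pooled and sorted to a stated purity above 99%, and amplified RNA was hybridised to 4 Affymetrix arrays, 2 per group. The sources do not say if each array had its own pool of cells, and p-values therefore reflect only the variation from array to array, possibly technical.

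Mitochondrial ribosomes translate the few proteins that mitochondrial DNA encodes, all of them core subunits of the respiratory chain and ATP synthase. The ribosomal RNAs come from the same DNA, but every ribosomal protein is encoded in the nucleus, made in the cytosol and imported. Some of these proteins have counterparts in the bacterial ribosome and others were added in the mitochondrial lineage. CD8 T cells enlarge their mitochondrial protein synthesis capacity when they are activated, and resting cells of the spleen rely on respiration.

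The values are log2 expression values, so a difference of 1 is a doubling. In this scale they compare arrays for 1 probe set and do not order genes by abundance. Of the 74 genes, 71 had a mean above the median level of all probe sets, 6.01. The exceptions were Mrpl37, Mrps25 and Mrpl54. Each sample is bulk RNA, in which fewer cells of a type and less RNA per cell cannot be told apart. The CD8 T cell markers measured, 6 of 7 listed, were all above the median level. Their mean levels were 9.09 and 9.50 on the TCDD arrays and 9.58 and 9.76 on the DMSO arrays. TCDD minus DMSO, Cd8a differed by -0.73, Thy1 by -0.70 and Cd3g by -0.45, each lower on both TCDD arrays. Cd3e differed by -0.265, Cd8b1 by -0.07 and Cd3d by -0.055. The CD4 T cell genes Cd4 and Cd40lg were also above the median level, with means of 7.03 and 6.375. DMSO replicate 2 stood apart in some markers of other cells. The neutrophil gene S100a8 measured 8.67 there against 5.45 to 5.94 elsewhere, S100a9 7.80 against 4.61 to 5.63, and the plasma cell gene Jchain 8.04 against 5.48 to 6.60. The other plasma cell markers did not follow Jchain, with Sdc1 at 6.92 against 6.62 to 6.79 and Prdm1 at 5.22 against 5.33 to 5.36. Other arrays also differed in such markers. The B cell gene Cd79b measured 7.09 on TCDD replicate 2 against 6.22 to 6.41 elsewhere, while Cd79a and Ms4a1 differed less. The monocyte and macrophage gene Csf1r measured 8.72 and 8.65 on TCDD and DMSO replicate 2, and 7.92 and 7.35 on replicate 1. Lyz2 measured 6.07 on DMSO replicate 1 against 6.78 to 7.11 elsewhere, and Itgam and Cd14 ranged less. The part of these cells in the results was not tested, and counts with each array left out are given below.

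No mitochondrial ribosomal protein gene passed the test for TCDD against DMSO, and the set showed no common shift when both arrays of each group were used. The median difference, TCDD minus DMSO, was 0.02 over the 74 genes and 0.01 over all genes, with 39 members above 0 and 35 below. The 74 differences ran from -0.695 (Mrpl51) to 0.69 (Mrps9), and 44 lay within 0.2 of 0. Differences of at least 0.5 in size were found for 4 members, 5.41%, against 3.48% of all genes above the median level. These were Mrpl51, Mrps14 and Mrps15, which measured lower with TCDD, and Mrps9, which measured higher.

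In limma's moderated test with Benjamini-Hochberg adjustment over 22626 probe sets, 0 members passed, against a background of 0% of all probe sets, and the lowest adjusted p in the series was 0.997. Before adjustment, 439 probe sets had a p under 0.05, 182 higher and 257 lower, and so did 2.11% of genes. The members among them were Mrps24 and Mrps9, higher, and Mrps2, lower, each with a limma adjusted p of 0.997. The TCDD arrays were both higher than either DMSO array for 7 members, 9.46%, where the background over all genes was 12.9%. Both lay below for 14 members, 18.9%, where the background was 12%. The other 53 overlapped. An exact permutation test of 2 arrays against 2 cannot go below a two-sided p of 0.3333, so none is given for single genes.

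**Figure D1:**
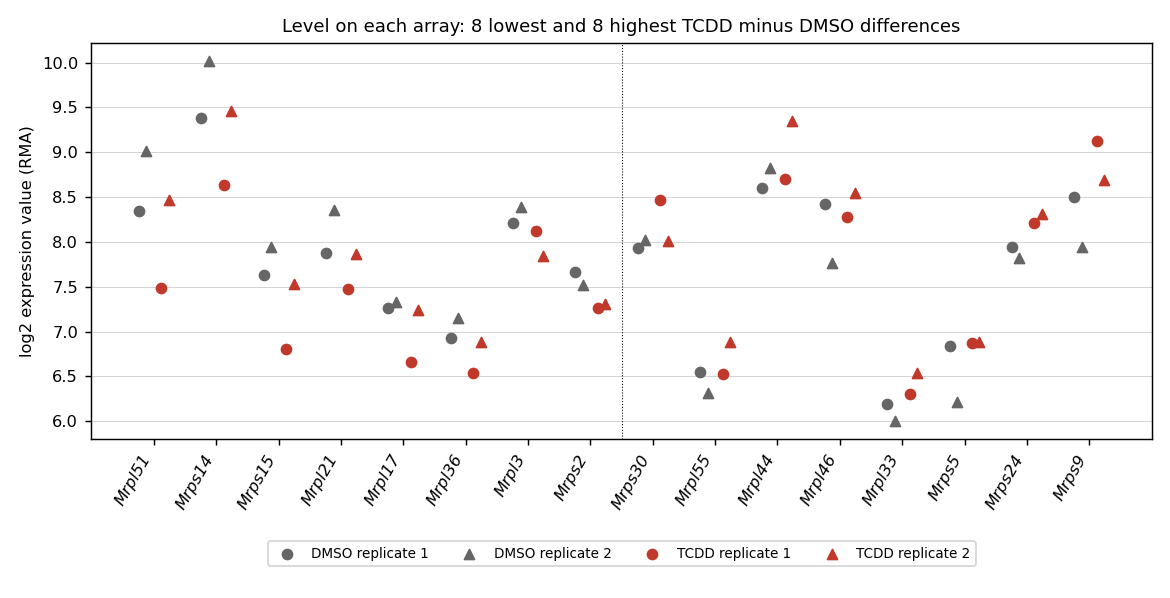
Log2 expression value (y axis) on each of the 4 arrays for the 8 members with the lowest and the 8 with the highest TCDD minus DMSO difference (x axis, in that order). Points are single arrays and the dotted line separates both sets. Arrays may be compared within a gene, not between genes. For Mrpl51 the groups overlap, and for Mrps9 the TCDD arrays, 9.13 and 8.69, lie above the DMSO arrays, 8.50 and 7.94.

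The start regions of these genes were read from RefSeq promoter windows of the mouse assembly GRCm38.p6, which run from 250 bases before to 50 after a start, 300 in all. Of the 74 members 65 matched, with 71 windows. Nuclear genes for mitochondrial proteins are known for sites of ETS family factors such as GABP (NRF2 in the older naming), of NRF1 and of YY1. The ETS core CCGGAA, searched on both strands like every motif here, was in 40 of 71 windows (56.34%), against 22.45% of the windows of measured genes, 14.9% of all RefSeq windows and 56.82% of those of cytosolic ribosomal protein genes. Of its 56 matches 42 lay within 50 bases of the start.

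The NRF1 core CGCATGCG was in 9.859% of the members' windows and 3.081% of those of measured genes, and the YY1 site AAGATGGCG in 9.859% and 2.309%. For the E box CACGTG, which MYC binds, the shares were 9.859% and 9.109%. The AHR site TNGCGTG was in 5 windows of the members, 7.042%, and in 7.007% of those of measured genes. The AHR site and the E box share the letters CGTG, and each motif was counted on its own. A match is a description of letters and not a bound site.

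**Figure D2:**
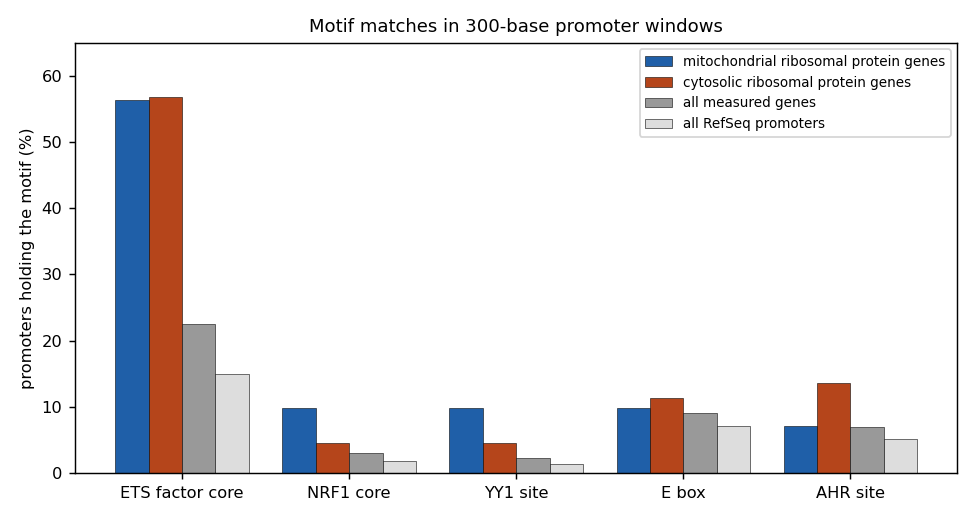
Share of 300-base RefSeq promoter windows that hold each of 5 motifs on either strand (y axis, percent), for the members, the cytosolic ribosomal protein genes, all measured genes and all promoters. The ETS core is in 56.34% of the members' windows and 22.45% of those of measured genes, and the AHR site in 7.042% and 7.007%.

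The sequences that follow are the 100 bases before the start of selected members, 5′ to 3′ along the gene. They were picked by hand among members with low or high differences, with 1 promoter that has both ETS and NRF1 letters. They are not a strict ranking, since Mrps14, at -0.655, and Mrps5, at 0.35, are not printed. Capitals mark matches to the motifs above. Mrpl51 lies at chr6:125192100-125192199 (plus strand), Mrps15 at chr4:126046828-126046927 (plus), Mrpl22 at chr11:58171564-58171663 (plus), Mrpl33 at chr5:31613851-31613950 (plus), Mrps9 at chr1:42851133-42851232 (plus) and Mrps24 at chr11:5707702-5707801 (minus).
Mrpl51: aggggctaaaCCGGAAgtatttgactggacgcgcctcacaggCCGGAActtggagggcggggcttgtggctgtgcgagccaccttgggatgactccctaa
Mrps15: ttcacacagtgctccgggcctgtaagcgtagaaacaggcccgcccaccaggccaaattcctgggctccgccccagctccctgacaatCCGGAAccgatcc
Mrpl22: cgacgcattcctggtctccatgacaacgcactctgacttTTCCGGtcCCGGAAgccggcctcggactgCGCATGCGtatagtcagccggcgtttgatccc
Mrpl33: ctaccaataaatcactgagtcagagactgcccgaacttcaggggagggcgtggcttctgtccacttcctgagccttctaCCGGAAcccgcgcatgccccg
Mrps9: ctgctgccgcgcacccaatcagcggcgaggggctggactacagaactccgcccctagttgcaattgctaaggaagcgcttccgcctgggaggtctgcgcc
Mrps24: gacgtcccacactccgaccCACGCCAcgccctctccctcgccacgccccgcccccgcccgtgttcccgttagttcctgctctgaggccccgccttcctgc

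Within the printed bases Mrpl51 holds CCGGAA at 2 places, Mrps15 and Mrpl33 each at 1, and Mrpl22 on both strands beside an NRF1 core. A second match in Mrpl33 begins 3 bases before the start and runs past the end of the print. Mrps9 has none of the motifs in these bases. Mrps24 has the AHR letters on the opposite strand, printed here as CACGCCA, and another AHR match and a YY1 match in the rest of its window. Members with the ETS core (37) had a median difference of 0.015, with 3 higher and 9 lower on both TCDD arrays, and those without it (28) 0.0225, with 3 and 4. Over all genes 12.9% lay higher and 12% lower, and these subsets are small. The 7 members with the NRF1 core, Mrpl9, Mrpl10, Mrpl17, Mrpl22, Mrpl32, Mrpl39 and Mrps18b, had a median of -0.225, with 0 higher and 3 lower. The 5 with the AHR letters, Mrpl9, Mrpl18, Mrps12, Mrps18a and Mrps24, ranged from -0.225 to 0.38 with a median of 0.035. No test was made of any of these splits.

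The small subunit held the member with the highest difference. Mrps9, the counterpart of bacterial S9 in the head of the small subunit and the gene without a motif in the bases printed, measured 9.13 and 8.69 on the TCDD arrays and 8.50 and 7.94 on the DMSO arrays. Both TCDD arrays were higher than both DMSO arrays. The difference was 0.69 (95% limits 0.03 to 1.35), or 1.61-fold. Mrps9 has 3 further probe sets, all above the median level, and they gave 0.33, 0.555 and -0.02. The last of these did not separate the groups.

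Mrps24, which despite its number is the counterpart of bacterial S3 at the entry of the mRNA channel, measured 8.21 and 8.31 with TCDD and 7.94 and 7.82 with DMSO. The groups did not overlap, and the difference was 0.38 (95% limits 0.09 to 0.67). A second probe set for Mrps24 measured 7.01 and 7.85 with TCDD and 7.16 and 7.97 with DMSO. That one followed the replicate number rather than the treatment, with a difference between treatments of -0.135. Mrps5, a neighbour at the mRNA entry, measured 6.87 and 6.88 with TCDD and 6.84 and 6.21 with DMSO. Its difference of 0.35 (95% limits -0.24 to 0.94) came from the lower value of DMSO replicate 2. It was 0.035 when that array was left out.

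At the other end of the small subunit stood Mrps14, Mrps15 and Mrps2. Mrps14, whose human orthologue is mutated in a combined oxidative phosphorylation deficiency, measured 8.63 and 9.46 with TCDD and 9.38 and 10.02 with DMSO. The TCDD arrays lay 0.83 apart and the DMSO arrays 0.64, the groups overlapped, and the difference was -0.655 (95% limits -1.58 to 0.27). A second Mrps14 probe set, below the median level, gave -0.085, with 0.19 within title number 1 and -0.36 within number 2. Mrps15, a protein that binds the ribosomal RNA of the platform, measured 6.81 and 7.53 with TCDD and 7.63 and 7.94 with DMSO. The groups did not overlap and the difference was -0.615 (95% limits -1.33 to 0.10). A second Mrps15 probe set gave -0.525 with overlapping groups.

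Mrps2, the counterpart of bacterial S2, was steadier between arrays of a group. It measured 7.26 and 7.31 with TCDD and 7.67 and 7.52 with DMSO, a difference of -0.31 (95% limits -0.60 to -0.02). Both TCDD arrays were lower. Its other probe set, below the median level, gave 0.085.

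In the large subunit the lowest difference was that of Mrpl51, a protein with no bacterial counterpart, whose printed start region holds the ETS core at 2 places. It measured 7.49 and 8.47 with TCDD and 8.34 and 9.01 with DMSO. The groups overlapped, and the difference was -0.695 (95% limits -1.74 to 0.35), or 0.618-fold. Its 2 other probe sets, both below the median level, gave -0.035 and -0.09.

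The large subunit proteins with a bacterial counterpart, taken as Mrpl numbers up to 36, supplied 10 of the 14 members whose TCDD arrays both lay lower. That is 37% of this group of 27, where the share was 12% over all genes and 12.8% over those above the median level. They were Mrpl21, Mrpl17, Mrpl36, Mrpl3, Mrpl11, Mrpl32, Mrpl13, Mrpl9, Mrpl2 and Mrpl18. Several of these separations were narrow, so the share rests partly on small gaps. The closest TCDD and DMSO arrays measured 7.87 and 7.88 for Mrpl21, 7.24 and 7.26 for Mrpl17, and 8.01 and 8.05 for Mrpl9. They measured 6.15 and 6.19 for Mrpl18 and 6.88 and 6.93 for Mrpl36, and were also close for Mrpl2. Gaps were wider for Mrpl3, Mrpl11, Mrpl13 and Mrpl32, at most 6.34 and 6.48 for Mrpl32. The median difference of these 27 genes was -0.135, with 2 members, Mrpl33 and Mrpl4, higher on both TCDD arrays. Within title number 1 their median was -0.24, and 25 (92.6%) measured lower with TCDD, against 55.3% of all genes. Within number 2 it was 0.06, with 12 lower and 15 (55.6%) higher, against 58.4% of all genes higher. None of the 20 mitochondria-specific large subunit members lay lower on both TCDD arrays, and 1 (Mrpl50) lay higher on both. The median of the 20 was 0.05, with -0.11 within number 1 and 0.295 within number 2. The difference between these groups was not tested. The small subunit medians were 0.0525 for the 16 with a counterpart (3 higher, 2 lower) and 0.025 for the 11 others (1 higher, 2 lower). These groups follow the symbol's number alone, so single members of either subunit may be misplaced. By structure Mrps18a and Mrps30 belong to the large subunit, Mrps28 is related to bacterial S1, and Mrps36 is now assigned to the 2-oxoglutarate dehydrogenase complex.

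Mrpl21 measured 7.47 and 7.87 with TCDD and 7.88 and 8.36 with DMSO, a difference of -0.45 (95% limits -1.04 to 0.14). The closest arrays of the groups were 0.01 apart. Another Mrpl21 probe set went the other way, at 6.43 and 6.45 with TCDD and 6.25 and 6.29 with DMSO, a difference of 0.17. Mrpl3, a protein near the peptidyl transferase centre, measured 8.12 and 7.84 with TCDD and 8.21 and 8.39 with DMSO. Its groups did not overlap and differed by -0.32 (95% limits -0.70 to 0.06), while its other probe sets gave 0.145 and -0.24.

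Mrpl36 measured 6.54 and 6.88 with TCDD and 6.93 and 7.15 with DMSO, a difference of -0.33 (95% limits -0.76 to 0.10), on its only probe set. Mrpl33 was the large subunit member with the highest difference. It measured 6.30 and 6.54 with TCDD and 6.19 and 6.00 with DMSO, which is 0.325 higher (95% limits -0.04 to 0.69). Both TCDD arrays were above both DMSO arrays. A second Mrpl33 probe set, below the median level, gave 0.055 with overlapping groups.

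Disagreement between probe sets of 1 gene was common. The 74 members had 127 probe sets that name a single gene, and 41 members had only 1. Another probe set above the median level existed for 16 members, and for 11 of them at least 1 such probe set had the opposite sign. For Mrpl13 the probe set used gave -0.25, with both TCDD arrays lower, and 2 others gave 0.26 and 0.165, with both TCDD arrays higher. The 7 probe sets of Mrpl15 ranged from -0.19 to 0.315.

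The title numbers 1 and 2 of the arrays gave opposite pictures of the same comparison. Between the arrays numbered 1, the median TCDD minus DMSO difference of the members was -0.165, against -0.03 over all genes, and 61 of 74 members (82.4%) measured lower with TCDD, against 55.3% of all genes. Between the arrays numbered 2 the median was 0.14, against 0.05 over all genes, and 49 members (66.2%) measured higher, against 58.4%. Members lower in number 1 and higher in number 2 made up 52.7%, where 34.0% of all genes did so, and those higher and then lower 2.70%, where 18.6% did. The difference between the numbers could not be tested, since the fit with both factors and their interaction has no residual degrees of freedom.

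**Figure D3:**
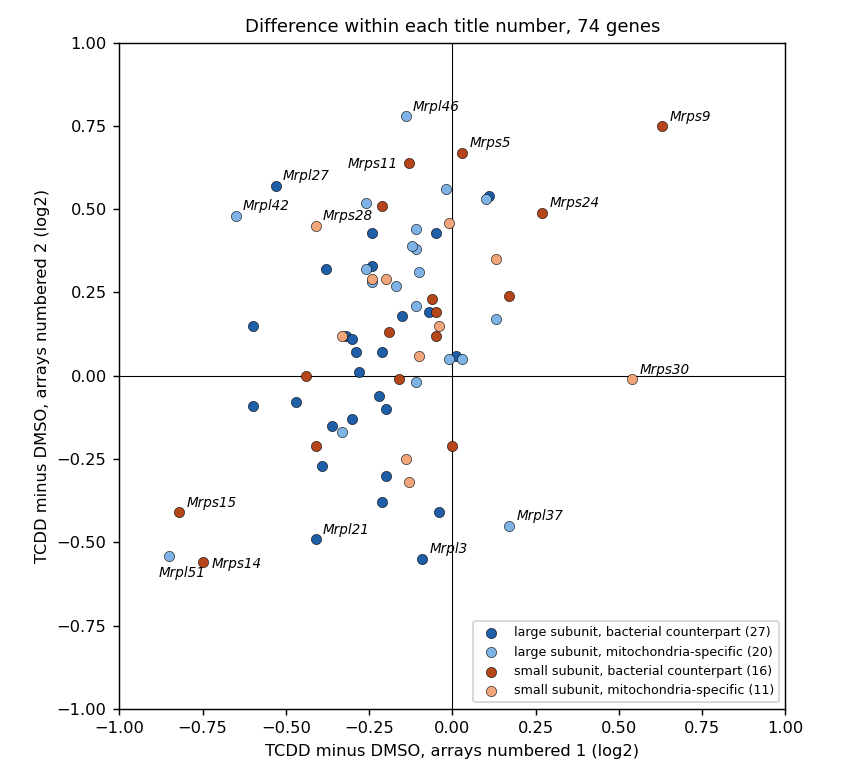
TCDD minus DMSO difference (log2) between the arrays numbered 1 (x axis) and between those numbered 2 (y axis), 1 point per member, 74 in all, with selected genes named. Of the members, 61 lie left of 0 on the x axis and 49 lie above 0 on the y axis. The 39 in the upper left quadrant were lower with TCDD in number 1 and higher in number 2.

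Mrpl27, the counterpart of bacterial L27, whose end reaches toward the peptidyl transferase centre, was among the clearest cases. It measured 7.14 and 8.52 on the TCDD arrays and 7.67 and 7.95 on the DMSO arrays. TCDD replicate 1 was the lowest of the 4 and TCDD replicate 2 the highest. The differences were -0.53 within number 1 and 0.57 within number 2, and 0.02 overall (95% limits -1.20 to 1.24).

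Mrpl42 measured 7.37 and 8.31 with TCDD and 8.02 and 7.83 with DMSO, or -0.65 and 0.48 within the numbers. Mrps28 measured 5.79 and 6.33 with TCDD and 6.20 and 5.88 with DMSO, or -0.41 and 0.45. In both genes the DMSO values lay between the TCDD values. Mrpl12, the stalk protein that recruits translation factors, also had both DMSO arrays, 7.96 and 7.87, between the TCDD arrays, 7.58 and 8.19.

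Differences of at least 0.3 in the same direction within both numbers were found for 5 members, Mrpl51, Mrps14, Mrps15, Mrpl21 and Mrps9. Measured lower within numbers 1 and 2 were Mrpl51 (-0.85 and -0.54), Mrps14 (-0.75 and -0.56), Mrps15 (-0.82 and -0.41) and Mrpl21 (-0.41 and -0.49). Mrps9 was higher, at 0.63 and 0.75. Across the 74 members the differences within the 2 numbers had a Pearson correlation of 0.35, against -0.07 over the 7389 genes above the median level. The pairs share no array, but members are not independent of each other and no test was made.

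The mean over the 74 members was lowest on TCDD replicate 1, at 7.49, highest on TCDD replicate 2, at 7.79, and 7.67 and 7.66 on the DMSO arrays. The TCDD arrays therefore lay on either side of the DMSO arrays. With 1 array left out the groups separate more often in any gene, so each count is given with the share over all genes. Without TCDD replicate 1 the median difference was 0.1075. The remaining TCDD array lay above both DMSO arrays for 41 members (55.4%, against 43% of all genes) and below both for 16 (21.6%, against 25.6%). Without TCDD replicate 2 the median was -0.15, with 8 members higher (10.8%, against 26.7%) and 47 lower (63.5%, against 38.2%). The direction of the members' median thus depended on which TCDD array was kept. Without DMSO replicate 1 the median was 0.0125, with 19 members higher (25.7%, against 32.8%) and 22 lower (29.7%, against 28.8%). Without DMSO replicate 2, the array with higher S100a8, S100a9 and Jchain, the median was -0.0225, with 11 higher (14.9%, against 25.3%) and 22 lower (29.7%, against 23.8%).

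Compared by number, with treatment in the fit, the members were higher on the arrays numbered 2 by a median of 0.11, against 0.035 over all genes. None passed limma's adjusted threshold, with a background of 0% and a lowest adjusted p of 0.478 over all probe sets, of which 1361 had an unadjusted p under 0.05. Both arrays numbered 2 lay above both numbered 1 for 21 members (28.4%), with a background of 22.4%, and below for 2 members (2.70%), Mrpl19 and Mrpl45, with a background of 14%. At an unadjusted p under 0.05 there were 7 members higher and 1 lower, against 6.18% of all genes.

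The 7 were Mrpl51, Mrps14, Mrps15, Mrpl21, Mrpl23, Mrpl48 and Mrps12, and the lower one was Mrps9. Mrpl51 differed by 0.825 between the numbers (limma adjusted p = 0.532) and Mrps14 by 0.735 (adjusted p = 0.532). The difference between numbers was thus larger than that between treatments in both genes. Mrps9 differed by -0.50 between the numbers, below its difference of 0.69 between treatments in size. The 3' minus 5' difference of the array controls also went with the number. For Gapdh it was 5.35 and 5.27 on TCDD and DMSO replicate 1, and 4.56 and 4.30 on replicate 2. For beta-actin it was 3.61 and 3.69 against 3.34 and 3.52. A smaller difference means signal closer to even along the transcript, and its part in the members' values was not tested.

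Structural sets of the large subunit showed the same spread. In the stalk and its base, Mrpl10, Mrpl11 and Mrpl12, which form the site where translation factors dock, the median difference was -0.135. Mrpl11 measured 7.33 and 7.43 with TCDD and 7.54 and 7.81 with DMSO, a difference of -0.295 without overlap. Its other probe sets gave -0.10, -0.045 and -0.08, each with overlapping groups. Along the exit tunnel (Mrpl17, Mrpl22, Mrpl23, Mrpl24 and Mrpl45) the median difference was -0.225. The medians were -0.47 within number 1 and -0.02 within number 2. Mrpl17 measured 6.66 and 7.24 with TCDD and 7.26 and 7.33 with DMSO, and Mrpl45, which holds the ribosome at the inner membrane, 7.22 and 7.14 against 7.33 and 7.16. The central protuberance (Mrpl18, Mrpl27, Mrpl38, Mrpl40, Mrpl46 and Mrpl48) had a median of 0.0625, with -0.18 and 0.35 within the numbers.

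The S18 paralogues, which bacteria have as 1 protein, had differences of 0.035 (Mrps18a), -0.03 (Mrps18b) and -0.105 (Mrps18c), and the groups overlapped for each. The 16 members whose human orthologues are known from combined oxidative phosphorylation deficiency had a median of 0.02. Both TCDD arrays lay higher for 2 of these (Mrps22 and Mrpl50), 12.5%, and lower for 3 (Mrpl3, Mrps2 and Mrps23), 18.75%. Over all genes 12.9% lay higher and 12% lower. Mrps22 measured 6.85 and 7.03 with TCDD and 6.72 and 6.68 with DMSO. Mrpl44, a protein related to RNase III, measured 8.70 and 9.35 with TCDD and 8.60 and 8.82 with DMSO, a difference of 0.315 that was -0.01 without TCDD replicate 2.

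The other machinery of mitochondrial translation was read in the same fit, and no gene of any list passed the adjusted threshold. Of 6 other symbols listed for mitochondrial ribosomal proteins, 4 matched a measured gene outside the members. Ict1, also listed, is an older name of the member Mrpl58. The median difference was -0.085, with Dap3 at -0.225, Chchd1 at -0.18 and Gadd45gip1 at 0.18. Of 16 translation factors 9 were measured, with a median of -0.08, 1 higher and 2 lower on both TCDD arrays, where 12.9% and 12% of all genes were. Mtif2, which starts translation on the mitochondrial ribosome, measured 6.31 and 6.11 with TCDD and 6.51 and 7.04 with DMSO, a difference of -0.565 (95% limits -1.11 to -0.02, limma adjusted p = 0.997). Slirp, which stabilises mitochondrial mRNA, differed by -0.41.

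For the assembly and rRNA modification factors, 19 of 24 measured, the median was -0.05, with 0 higher and 4 lower, Mrm2 at -0.29 and Rpusd4 at -0.23. The aminoacyl-tRNA synthetase list also holds Gatb, Gatc and Qrsl1, which are subunits of a tRNA amidotransferase and not synthetases. The genes measured, 11 of 22, had 0.105, with 2 higher (Hars2 and Gatc) and 0 lower. Hars2 and Tars2 were both at 0.24. Over all genes 12.9% lay higher and 12% lower. Genes of the mitochondrial genome and its transcription, 10 of 12, had -0.025, with Tefm at -0.18. Tfam, which packages and transcribes mitochondrial DNA, differed by 0.09 within number 1 and -1.13 within number 2, and by -0.52 overall. Nuclear regulators of mitochondrial biogenesis, 9 of 10, had a median of -0.10, with Yy1 at -0.57 (0.14 and -1.28 within the numbers) and Myc at -0.52 (-0.86 and -0.18).

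The 43 cytosolic ribosomal protein genes had a median difference of 0.00, with -0.06 within number 1 and 0.00 within number 2. On both TCDD arrays 4 lay higher (9.30%) and 12 lower (27.9%), against 12.9% and 12% of all genes. Rpl27a differed by -0.555 and Rpl12 by -0.475. The 79 genes of the respiratory chain and ATP synthase had 0.01, with -0.10 and 0.12 within the numbers. Of these 12 lay higher (15.2%) and 6 lower (7.59%). The direction by number was thus the same as in the mitochondrial ribosomal protein genes, at -0.165 and 0.14. No test of a difference between these lists was made. The respiratory chain genes with the largest differences, Ndufs1 at -0.645 and Ndufv2 at 0.485, are both subunits of complex I.

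**Figure D4:**
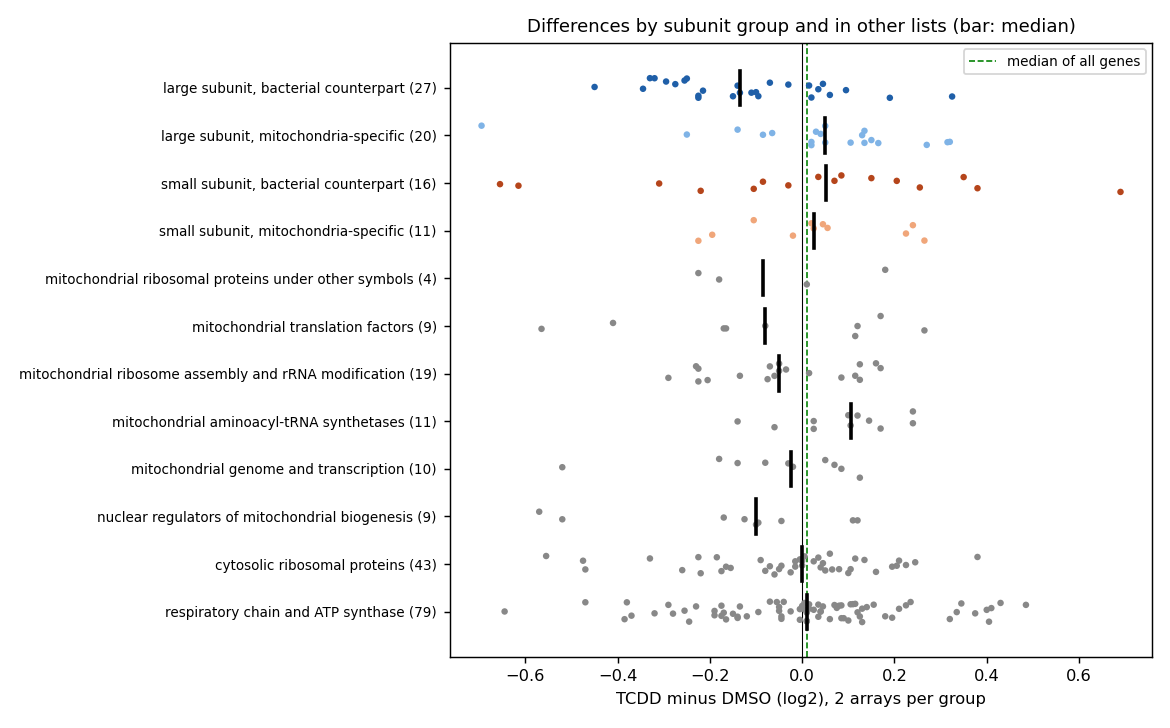
TCDD minus DMSO difference (log2, x axis) of each gene in the 4 subunit groups of the members and in the other lists (y axis), with 2 arrays per group. Points are genes, offset vertically only to separate them, bars are list medians and the dashed line is the median of all genes, 0.01. The group medians of the members run from -0.135 to 0.0525, and single genes spread well beyond them.

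Some of these genes start back to back with a neighbour on the other strand. Of the 65 members 21 had such a start within 500 bases, and in 15 cases the neighbour was measured. The share over all genes was not counted, so the count is not read as a trait of the members. Mrpl46, a protein of the central protuberance, and Mrps11, which lies at the mRNA exit of the small subunit, are both members and start 41 bases apart. The stretch between their starts, at chr7:78783090-78783130 (plus strand), is shown because both genes share it, and it holds none of the motifs.
Mrpl46 and Mrps11: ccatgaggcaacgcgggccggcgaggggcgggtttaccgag

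Mrpl46 measured 8.28 and 8.54 with TCDD and 8.42 and 7.76 with DMSO. Mrps11 measured 6.27 and 6.84 with TCDD and 6.40 and 6.20 with DMSO. Within number 1 the pair differed by -0.14 and -0.13 between treatments, and within number 2 by 0.78 and 0.64. Other pairs ranged from close to far apart. Mrpl18 differed by -0.22 and -0.06 within the numbers and its neighbour Tcp1, a subunit of a cytosolic chaperonin, by -0.17 and -0.05. Mrps12, a protein of the decoding centre, differed by -0.06 and 0.23 within the numbers and its neighbour Sars2, a mitochondrial seryl-tRNA synthetase, by -0.09 and 0.43. Mrpl21 differed by -0.41 and -0.49, where Ighmbp2, whose start is 31 bases away, differed by -0.32 and 0.37. Mrpl49 differed by -0.01 and 0.05, where Fau, the gene of a cytosolic ribosomal protein, differed by -0.28 and 0.36.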

How the data were processed

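Values were taken from the deposited table of 4 arrays. The authors computed these log2 values with RMA, per the submitters' processing notes, which name no version. That they are log2 was judged from their range. The arrays' number limits the precision. Of 22690 probe sets 64 controls were left out. In the platform annotation 20380 probe sets had 1 gene symbol, 691 several and 1555 none. Symbols of the other lists were updated through RefSeq (GRCm38.p6). Differences were fitted over 22626 probe sets with limma's lmFit and eBayes (version 3.58.1, R 4.3.3), without covariate or filter, at a Benjamini-Hochberg threshold of 0.05. The same fit with treatment and title number gave the differences between numbers.

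Members and lists were chosen with earlier results of these data known, so no list received a test. Named were the 4 highest and 4 lowest members of each subunit group and for the title numbers, members whose groups did not overlap with a difference of at least 0.3, or that differed as much within both numbers, the 8 whose probe sets differed most, the stalk, tunnel, protuberance and S18 genes, and the 2 genes of each other list with the largest difference, or 3 where tied. This gave 48 members. Of these, Mrps33 differed by -0.225, Mrps34 by 0.225 and Mrpl55 by 0.27 between treatments, and they are not described elsewhere. Other genes named to account for a count, for a motif or as neighbours were chosen after their values were seen. Alternatives were median centring, a further quantile normalisation, a filter at the median level, a variance trend with robust fitting, removal of probe sets marked for cross hybridisation, gene means, a replicate block, title number alone, and each array left out in turn.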

Additional observations from a re-analysis of the deposited data

Results flagged for a closer look

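The TCDD minus DMSO difference of the members, taken as a median, had opposite signs within the title numbers. Whether the numbers differ in it was not tested because no residual degrees of freedom remain. The members' median difference was -0.165 within number 1 and 0.14 within number 2. Mrpl42 differed by -0.65 and 0.48, Mrpl12 by -0.38 and 0.32, Mrpl27 by -0.53 and 0.57, and Mrps28 by -0.41 and 0.45. These 4 are the members that differed by at least 0.3 in opposite directions. Each value rests on 1 array against 1. The 3' minus 5' signal of the controls and the neutrophil genes of DMSO replicate 2 differ between the same arrays, and their part was not tested.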

How the results depend on the processing

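No member and no probe set passed the adjusted threshold for TCDD against DMSO under any alternative. With the replicate block 0 were called, the median of the members stayed at 0.02, and 612 probe sets and 7 members had an unadjusted p under 0.05, against 439 and 3 without it. The labels do not say what the numbers mark. Deviations of same-numbered arrays, from 2 pairs, had a correlation of 0.234 over all probe sets, 0.283 over genes above the median level and 0.344 over the members. A shared batch was not tested. Between the numbers, 30 probe sets were called with a variance trend and robust fitting and 1 with number alone, against 0, none of them a member. Left-out arrays gave values but no test there. The count of members lower on both TCDD arrays, 14, became 13 with median centring and 12 with a further quantile normalisation. The count higher on both, 7, became 7 and 9.

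Of the 48 named members 22 kept their sign under every alternative. Averaging probe sets turned Mrpl13 to 0.058, Mrpl15 to 0.021, Mrpl42 to 0.025 and Mrps25 to 0.045, and removing probe sets marked for cross hybridisation turned Mrpl28 to -0.085 and Mrpl38 to -0.08. With each array left out in turn, the difference of 25 members took both signs, with these ranges: Mrpl10 -0.315 to 0.045, Mrpl12 -0.335 to 0.275, Mrpl15 -0.245 to 0.055, Mrpl19 -0.325 to 0.125, Mrpl20 -0.05 to 0.17, Mrpl22 -0.57 to 0.12, Mrpl23 -0.65 to 0.10, Mrpl27 -0.67 to 0.71, Mrpl28 -0.15 to 0.34, Mrpl37 -0.315 to 0.035, Mrpl38 -0.035 to 0.305, Mrpl40 -0.135 to 0.345, Mrpl41 -0.18 to 0.51, Mrpl42 -0.555 to 0.385, Mrpl44 -0.01 to 0.64, Mrpl45 -0.15 to 0.02, Mrpl46 -0.01 to 0.65, Mrps11 -0.03 to 0.54, Mrps16 -0.505 to 0.065, Mrps18a -0.075 to 0.145, Mrps18b -0.135 to 0.075, Mrps18c -0.215 to 0.005, Mrps25 -0.09 to 0.05, Mrps26 -0.005 to 0.115 and Mrps35 -0.225 to 0.015. With 1 array left in a group, its spread was taken from the other group. Apart from the construction of each setting, the cause was not tested.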
